A study of Homo sapiens with 16 samples.

Results

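The human mitochondrial genome encodes 22 transfer RNAs, and the annotation places 8 of them on its minus strand: TRNA, TRNC, TRNE, TRNN, TRNP, TRNQ, TRNS1 and TRNY. These 8 genes, taken by that annotated strand and not by any measured value, are 8 of the 33121 genes in the deposited count table and 8 of its 24 genes from the mitochondrial genome. The other 16 are the 14 tRNA genes of the plus strand and both ribosomal RNA genes, RNR1 and RNR2. Of 37 genes annotated on this genome, the 13 that encode proteins were not analysed here, among them ND6, the only other gene annotated on the minus strand.

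The study sequenced poly-A selected RNA of the near-haploid human cell line HAP1 in 16 libraries that formed 4 groups of 4. The SLC30A10 knockout is a HAP1 line with a deletion of SLC30A10, which encodes a manganese exporter of the cell surface, and the SLC30A10 control is HAP1 labelled with the intact gene. The second knockout is a HAP1 line with a deletion of another gene, and the second control is HAP1 labelled with that gene intact. All groups were grown in the same serum-supplemented medium with no treatment given in the labels. Both controls carry 1 cell line identifier and each knockout carries 1 of its own, so the deletion and any other feature of that line cannot be told apart. The labels do not say whether the 4 replicates came from separate cultures, so the p-values measure the spread between these libraries, which may be technical. Library totals were even, from 16058856 to 16648151 counts, and 3 counts corresponded to 0.181 to 0.187 CPM (count per mega-count of the TMM-scaled library). SLC30A10 itself had 6 to 9 counts in the SLC30A10 control and 3 to 11 in the SLC30A10 knockout, so its RNA level did not show the deletion and the group names follow the labels.

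Mitochondrial DNA is transcribed from both strands into long RNAs that carry many genes. The tRNAs lie between the other genes and are cut out at their 5′ end by mitochondrial RNase P and at their 3′ end by ELAC2, after which TRNT1 adds the bases CCA that accept the amino acid. Most of the remaining sequence of the minus-strand transcript has no gene and is degraded, and granules next to the mitochondrial DNA hold newly made RNA and the proteins that process it. Mature tRNAs have no poly-A tail. The values below are therefore counts of those fragments that passed poly-A selection. Mature tRNA, longer precursors and RNA of the opposite strand cannot be told apart in them, because the strand setting of the counting is not given in the sources used here and the reads, at 100 bases, are longer than these genes.

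The sequences of the 5 members that passed the test in at least 1 comparison are shown on the minus strand from the 5′ end, with the anticodon in capitals, as DNA. TRNA is among them but reached the test only through the SLC30A10 knockout, where it was high, so its call is a description. The sequences were read from the GENCODE release 29 transcripts on GRCh38, whose coordinates for all 37 mitochondrial genes were identical in RefSeq. The capitals are the bases that pair with the codon.
TRNA, alanine, chrM:5587-5655: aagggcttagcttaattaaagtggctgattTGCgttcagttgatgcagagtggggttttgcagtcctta
TRNQ, glutamine, chrM:4329-4400: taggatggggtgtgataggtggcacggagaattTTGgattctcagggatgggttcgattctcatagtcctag
TRNC, cysteine, chrM:5761-5826: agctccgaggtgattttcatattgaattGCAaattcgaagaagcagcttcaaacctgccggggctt
TRNS1, serine, chrM:7446-7514: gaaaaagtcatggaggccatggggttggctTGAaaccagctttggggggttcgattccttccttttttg
TRNP, proline, chrM:15956-16023: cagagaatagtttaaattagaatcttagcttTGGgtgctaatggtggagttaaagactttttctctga

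The other 3 members carry asparagine (TRNN, chrM:5657-5729), tyrosine (TRNY, chrM:5826-5891) and glutamate (TRNE, chrM:14674-14742). The anticodon was placed at the triplet for the known amino acid whose flanking arms formed the most stem base pairs, G-T pairs included. For each of the 8 sequences this was 5 of 5 pairs. The 8 genes were 66 to 73 bases long and rich in G on their own strand, at 23.5% to 36.1%, while the 14 plus-strand genes held 10.3% to 19.1% G. Their C content, 10.3% to 21.2%, overlapped that of the plus-strand genes, 12.3% to 30.5%. TRNS1 had the longest run of A on the opposite strand, 6 bases, which is the run of t near the end of its printed sequence.

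The 8 genes lie in different surroundings. TRNA, TRNN, TRNC and TRNY form a cluster in which TRNA and TRNN are 1 base apart, TRNC and TRNY overlap by 1 base, and the 31 bases between TRNN and TRNC hold the known origin of light-strand replication. TRNA lies 7 bases from TRNW of the plus strand, and TRNY lies 12 bases from the mRNA gene COX1. TRNQ overlaps TRNI by 3 bases and is 1 base from TRNM, both of the plus strand. TRNS1 follows COX1 with no gap and is 3 bases from TRND. TRNE joins ND6 with no gap and is 4 bases from CYTB. TRNP is 2 bases from TRNT and faces the control region on its other side. The mRNAs of COX1 and ND5, on the plus strand, are known to continue past their coding ends into the sequence opposite TRNS1 and opposite ND6 and TRNE. Those mRNAs were not analysed here, and their part in the counts of TRNS1 and TRNE was not tested.

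Levels per length spanned 3 orders of magnitude among the 8 genes. TRNS1, a serine tRNA, had the highest level of all 22 mitochondrial tRNA genes, with a mean over the 16 libraries of 12369 CPM per kilobase and a range of 9038 to 15423. TRNC followed with 3020 (2503 to 3612) and TRNE with 2638 (2158 to 3418), so their ranges overlapped. TRNY, at 1434 CPM per kilobase (1272 to 1598), lay below all libraries of TRNE and overlapped TRNP, at 1136 (871 to 1481). The step to the remaining members was the largest: TRNQ had a mean of 22.7 CPM per kilobase (8.43 to 46.6), TRNA 10.5 (3.51 to 27.9) and TRNN 6.95 (1.70 to 15.1), and these 3 overlapped each other. Among the 22 tRNA genes the ranks in the same order were 1, 2, 3, 4, 6, 19, 20 and 22. TRNL1 of the plus strand, at 1235 CPM per kilobase, stood between TRNY and TRNP.

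In counts, TRNS1 alone held 60.6% of all counts on the 8 genes, TRNC 14.1%, TRNE 12.9%, TRNY 6.72% and TRNP 5.48%. TRNQ, TRNA and TRNN held 0.116%, 0.0509% and 0.0360%. Their mean counts per library were 26.7, 11.75 and 8.31, against 13967 for TRNS1. The 3 low members each had a counted tRNA gene within 31 bases on both sides. Of the 5 abundant members only TRNC did. No test was made of this arrangement, which was noticed after the levels were seen.

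**Figure D1:**
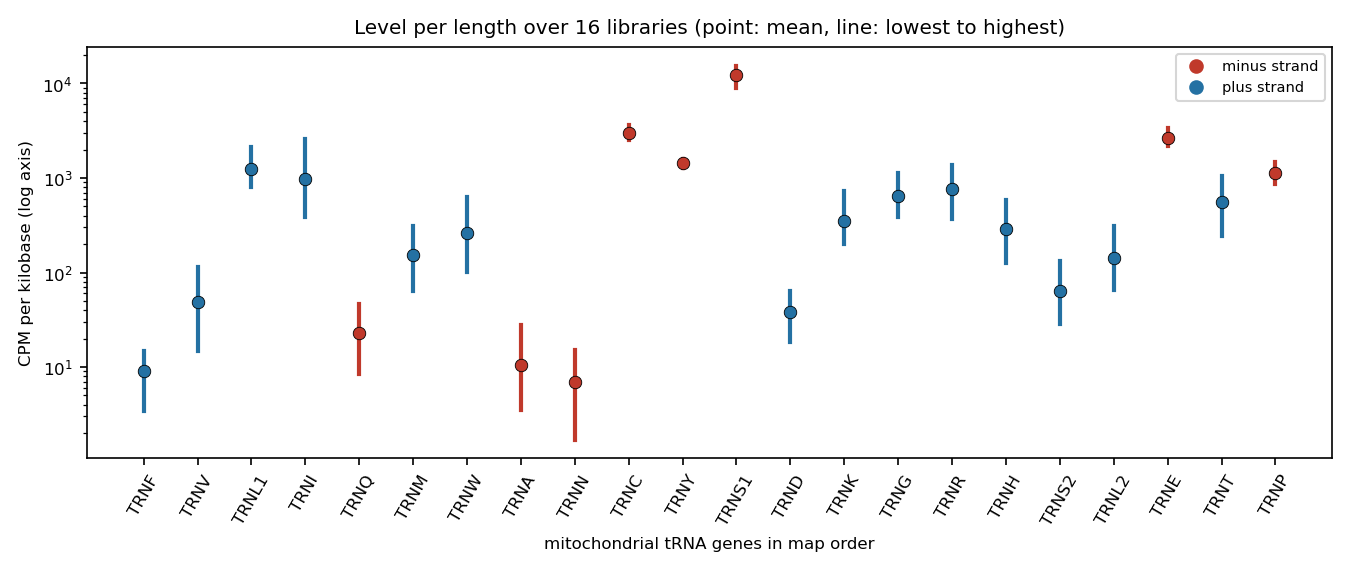
Mean level of each of the 22 mitochondrial tRNA genes in CPM per kilobase on a log axis, in map order, with the lowest and highest of 16 libraries as a line and strand as colour. Minus-strand genes take both ends of the range, TRNS1 at 12369 and TRNN at 6.95, while TRNC, TRNY, TRNE and TRNP lie above 871 in every library.

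All 8 genes passed the filter on low counts. TRNA passed with 7 libraries at the required level, of which 3 lay outside the SLC30A10 knockout, while the filter asks for 4. TRNA thus reached the test only through the group where it was high, and its differences that involve this group are given as a description. TRNN passed with 5 libraries. Replicates of the abundant members varied by more than counting: the coefficient of variation within a group was 17.7% for TRNE in the SLC30A10 control, where counting alone gives 1.80%, and 12.0% for TRNS1 there, where counting gives 0.826%. For TRNQ the spread within groups, 5.22% to 18.7%, was below the counting error of 14.0% to 27.5% in each of the 4 groups. The SE and interval given for TRNQ below follow the fitted spread, so they may be narrower than counting error alone would give.

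The first comparison set the SLC30A10 knockout against its control to see which of these RNAs differ when SLC30A10 is deleted. TRNA and TRNQ, both of low abundance, were 2.99-fold and 1.94-fold higher, TRNC was 1.20-fold higher (though lower when counts were scaled to the other mitochondrial genes), and TRNS1, the most abundant, was 1.27-fold lower. Thus 4 of 8 members passed the test, 3 higher and 1 lower, or 3 of 7 without TRNA, while 41.4% of all 15569 tested genes passed it, 21.2% higher and 20.2% lower. The share of members called was near that background. Groups did not overlap for 3 of the 8, TRNA, TRNQ and TRNS1, against 38.3% of all tested genes. The median absolute log2 fold change of the 8 was 0.24, beside 0.16 over all tested genes, and the medians with sign were 0.05 and -0.0048.

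TRNA, the alanine tRNA printed above, had 0.365, 0.243, 0.609 and 0.792 CPM in the 4 control libraries, or 4 to 13 counts. In the knockout it had 1.37, 1.93, 1.47 and 1.31 CPM, or 21 to 31 counts. Every knockout library lay above every control library. The log2 fold change was 1.58 ± 0.32 (SE), with a 95% confidence interval of 0.92 to 2.24. At these counts the size of the change is poorly fixed, as the interval shows.

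TRNQ, the glutamine tRNA, had 1.46, 1.64, 1.83 and 1.52 CPM in the control and 3.35, 3.04, 3.19 and 2.99 CPM in the knockout. The groups were well apart, at 1.61 ± 0.161 and 3.14 ± 0.164 CPM (SD, n = 4). The log2 fold change was 0.96 ± 0.16 (SE, interval 0.64 to 1.28; adjusted p = 1.79e-05, edgeR quasi-likelihood, Benjamini-Hochberg). TRNQ overlaps TRNI and adjoins TRNM, and these plus-strand neighbours were also higher, by 1.54 ± 0.11 and 1.37 ± 0.10 on the log2 scale. Their part in the TRNQ counts was not tested.

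TRNC, which carries cysteine, had 181, 175, 165 and 202.6 CPM in the control and 195, 221, 217 and 238 CPM in the knockout. The lowest knockout library lay inside the control range. The group levels were 181 ± 15.8 and 218 ± 17.9 CPM (SD, n = 4), and the log2 fold change was 0.27 ± 0.07 (SE, interval 0.13 to 0.41; adjusted p = 0.00251, edgeR quasi-likelihood, Benjamini-Hochberg). TRNY, the tyrosine tRNA that overlaps TRNC by 1 base, did not pass the test (0.03 ± 0.06, interval -0.10 to 0.15). The ratio of TRNC to TRNY counts was 1.92 ± 0.162 in the control and 2.26 ± 0.206 in the knockout (SD, n = 4), with overlapping libraries.

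TRNS1, the serine tRNA, had 785, 1021, 825 and 934 CPM in the control. The knockout libraries had 742, 624, 756 and 685 CPM, all below the lowest control. The levels were 891 ± 107 and 702 ± 60.5 CPM (SD, n = 4). TRNS1 fell by 0.34 ± 0.08 (SE) on the log2 scale (adjusted p = 0.000561, edgeR quasi-likelihood, Benjamini-Hochberg). TRND, the aspartate tRNA 3 bases away on the other strand, was 0.59 ± 0.16 higher (log2), and the ratio of TRNS1 to TRND counts was 349 ± 56.2 in the control and 183 ± 20.7 in the knockout (SD, n = 4) without overlap.

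The other members did not pass the test in this comparison. TRNE, the glutamate tRNA, had 149, 222, 172 and 207 CPM in the control and 180, 166, 188 and 161 CPM in the knockout, and its log2 fold change was -0.11 ± 0.10 (interval -0.32 to 0.10). The knockout libraries fell within the wide control range. TRNP, the proline tRNA, had 65.4 ± 5.39 and 68.6 ± 5.54 CPM (SD, n = 4), with a log2 fold change of 0.07 ± 0.08 (interval -0.10 to 0.24). TRNN, the asparagine tRNA, had 0.365, 0.546, 0.914 and 0.609 CPM in the control and 0.435, 0.435, 1.10 and 0.124 CPM in the knockout. Its interval, -1.13 to 0.72, does not exclude a fall as large as the rise of TRNQ, but it excludes a rise of that size.

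**Figure D2:**
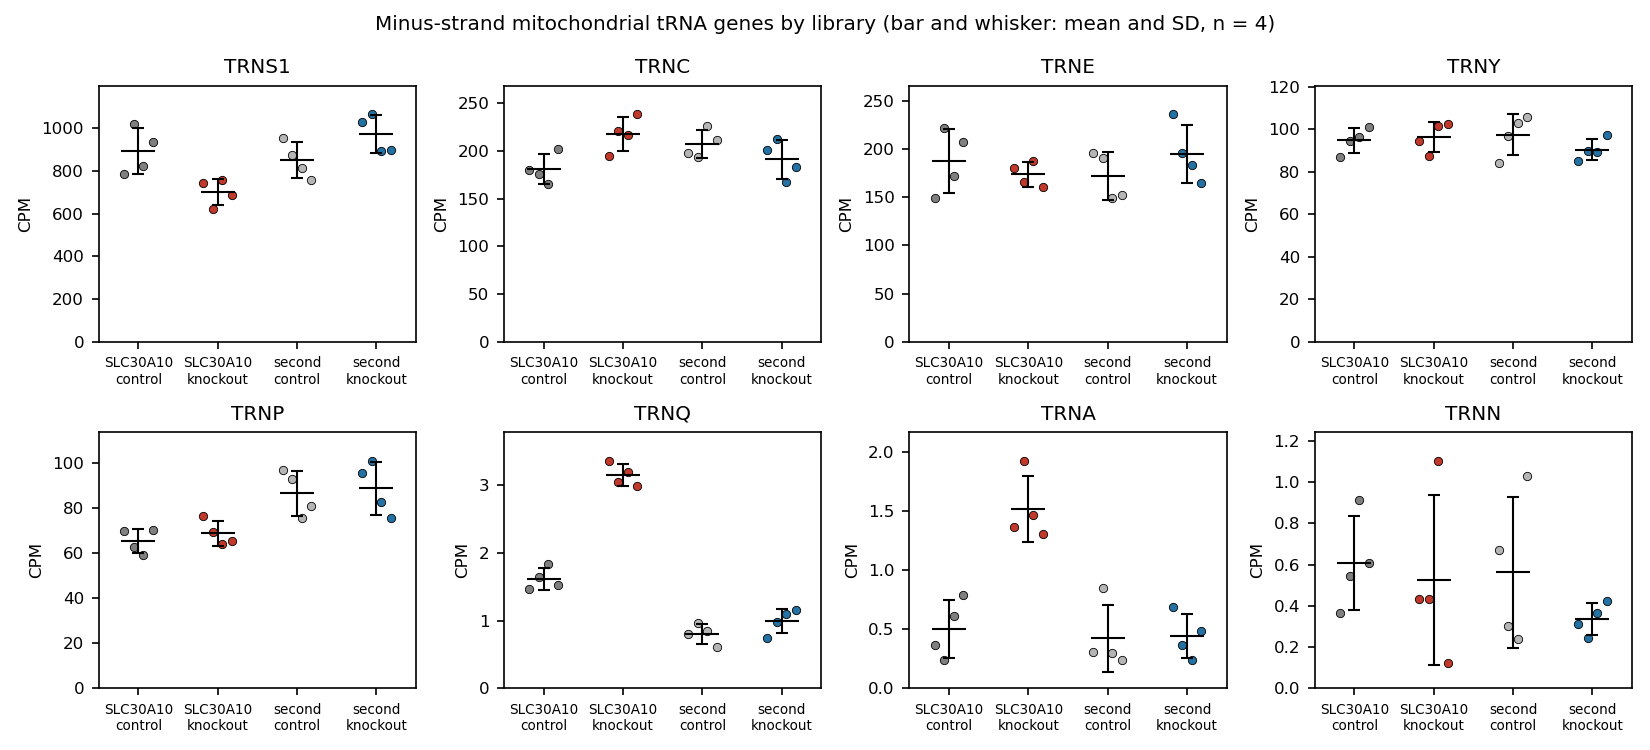
Level of each minus-strand tRNA gene in CPM (linear axes from 0) in each of 16 libraries, by group, with the mean and SD of 4 libraries. TRNQ and TRNA are highest in the SLC30A10 knockout, at 3.14 and 1.52 CPM on average, TRNS1 is lowest there at 702 CPM, and TRNP is higher in the second control and the second knockout than in the SLC30A10 control.

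The second knockout was compared with its own control in the same way. None of the 8 members passed the test (edgeR quasi-likelihood, Benjamini-Hochberg), while 13.7% of all tested genes did, 6.67% higher and 7.03% lower, and none had groups that did not overlap, against 16.3% of all tested genes. In the same edgeR fit 1 member, TRNS1, had an unadjusted p under 0.05. With the DESeq2 Wald test 0 members passed after adjustment. The median absolute log2 fold change of the 8 was 0.15, beside 0.094 over all tested genes.

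TRNS1 had 955, 872, 814 and 756 CPM in the second control and 1030, 1064, 893 and 899 CPM in the second knockout. Its log2 fold change was 0.19 ± 0.07 (SE, interval 0.04 to 0.35; adjusted p = 0.0904, edgeR quasi-likelihood, Benjamini-Hochberg). Leaving out second control replicate 1, or replicate 3 or 4 of the second knockout, brought the adjusted p of this value under 0.05, and the lowest was 0.0253. TRNQ had 0.795, 0.969, 0.843 and 0.607 CPM in this control and 0.748, 0.980, 1.09 and 1.15 CPM in the knockout, with a log2 fold change of 0.30 ± 0.23 (interval -0.17 to 0.77). TRNA stood at 0.424 ± 0.284 and 0.445 ± 0.188 CPM (SD, n = 4), and its log2 fold change was 0.06 ± 0.44. Its 14 counts in second control replicate 2 set that library apart from the 4 or 5 counts of the others.

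Among the rest, TRNE had 172 ± 24.5 CPM in the second control and 195 ± 29.9 in the second knockout (SD, n = 4; log2 fold change 0.18 ± 0.10), and TRNC had 207 ± 14.8 and 191 ± 20.1 (-0.12 ± 0.07). TRNY had 97.3 ± 9.60 and 90.3 ± 5.04 CPM (-0.11 ± 0.06). TRNP had 86.5 ± 10.0 and 88.5 ± 11.6 CPM (0.03 ± 0.08, interval -0.13 to 0.20). TRNN, at 0.562 ± 0.367 and 0.336 ± 0.0758 CPM, had the widest interval of log2 fold change, -1.76 to 0.31.

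Whether the effects of the deletions differed was tested directly. For 3 of the 8 members, or 2 of 7 without TRNA, the difference between both effects passed the test (edgeR quasi-likelihood, Benjamini-Hochberg), while 31.3% of all tested genes did, 16.7% with the SLC30A10 effect higher and 14.6% with it lower. The log2 effect of the SLC30A10 deletion exceeded that of the second by 0.38 ± 0.10 for TRNC (SE, adjusted p = 0.00302, edgeR quasi-likelihood with Benjamini-Hochberg). For TRNA the difference was 1.52 ± 0.56 (adjusted p = 0.0382, edgeR quasi-likelihood, Benjamini-Hochberg), a description because of how TRNA passed the filter. For TRNS1 the difference was -0.54 ± 0.11 (adjusted p = 0.000283, edgeR quasi-likelihood, Benjamini-Hochberg), from log2 fold changes of -0.34 and 0.19. For TRNQ, called in only 1 knockout, the difference was 0.66 ± 0.28 and did not pass the test (adjusted p = 0.103, edgeR quasi-likelihood, Benjamini-Hochberg). The TRNA difference depended on single libraries: without second control replicate 2 it was 0.95, where the adjusted p was 0.243 (edgeR quasi-likelihood, Benjamini-Hochberg), and 6 of 16 omissions ended the call. The others were SLC30A10 knockout replicate 2, SLC30A10 control replicates 1 and 2, and second knockout replicates 2 and 3, and the values ranged from 0.95 to 1.81.

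Both controls carry the same cell line identifier, and neither carries a deletion, so the control sets were compared with each other too. Here 3 of 8 members passed the test, TRNQ higher and TRNC and TRNP lower in the SLC30A10 control, while 39.3% of all tested genes passed it. Groups did not overlap for 2 of the 8, against 36.3% of all tested genes. TRNQ was 2.00-fold higher in the SLC30A10 control than in the second control (log2 1.00 ± 0.21, adjusted p = 0.000424, edgeR quasi-likelihood, Benjamini-Hochberg), a difference between control sets of the same size as that between the SLC30A10 knockout and its control. TRNP had 69.6, 62.5, 59.2 and 70.2 CPM in the SLC30A10 control and 96.9, 92.6, 75.4 and 80.9 CPM in the second control. All libraries of the second control were above those of the SLC30A10 control, and the log2 difference was -0.40 ± 0.08 (adjusted p = 0.000367, edgeR quasi-likelihood, Benjamini-Hochberg).

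TRNC was also lower in the SLC30A10 control than in the second control, by a log2 difference of -0.20 ± 0.07 (adjusted p = 0.0238, edgeR quasi-likelihood, Benjamini-Hochberg), and its groups overlapped. This call was lost on leaving out any of 5 libraries, replicates 1, 2 and 3 of the SLC30A10 control and replicates 3 and 4 of the second control, with values from -0.25 to -0.15 over all 8 omissions. The level of TRNC in the SLC30A10 knockout, 195 to 238 CPM, overlapped that in the second control, 194 to 226 CPM. Against the mean of both control groups, the log2 fold change of TRNC in the SLC30A10 knockout was 0.17 ± 0.06 (adjusted p = 0.0217, edgeR quasi-likelihood, Benjamini-Hochberg). TRNQ was then 1.46 ± 0.14 higher. These values average the comparisons with each control group, so their SE does not include the difference between the control groups. TRNA, TRNE, TRNN, TRNS1 and TRNY did not pass the test between the controls, with log2 differences from -0.04 to 0.24.

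The minus-strand genes were set beside the 14 tRNA genes of the plus strand. In the SLC30A10 knockout 12 of 14 plus-strand genes rose and none fell, beside 21.2% and 20.2% of all tested genes. Their median log2 fold change was 0.95, where the 8 minus-strand genes had 0.05. Scaled to the 16 mitochondrial genes other than the members, 5 rose and 0 fell, beside 92.4% of all tested genes called. Those 16 are the 14 plus-strand genes with RNR1 and RNR2, so this scaling takes out most of any rise that the plus-strand genes share. In the second knockout 10 of 14 rose and none fell, beside 6.67% and 7.03% of all tested genes. So scaled, 5 rose and 0 fell, beside 67.7% of all tested genes called. The plus-strand median was 0.58, where the minus-strand genes again had 0.05 and no call. Between the controls 11 of 14 plus-strand genes were higher in the SLC30A10 control, beside 18.5% of all tested genes. So scaled, 8 were higher, beside 52.7% of all tested genes called in either direction. The plus-strand median was 0.61, where the minus-strand genes had 0.09. The knockout and control comparisons share libraries, so these medians are not independent of each other. In CPM, RNR1 and RNR2 passed the test in none of the 3 comparisons. Scaled to the 16 genes, which include both, RNR1 (-0.46) and RNR2 (-0.76) were lower in the SLC30A10 knockout, beside 92.4% of all tested genes called. So scaled, only RNR2 was called in the second knockout (-0.24, beside 67.7%) and between the controls (-0.52, beside 52.7%). In the medians in CPM the minus-strand genes stayed near the median of all tested genes, which was between -0.0061 and -0.0025 in each comparison.

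**Figure D3:**
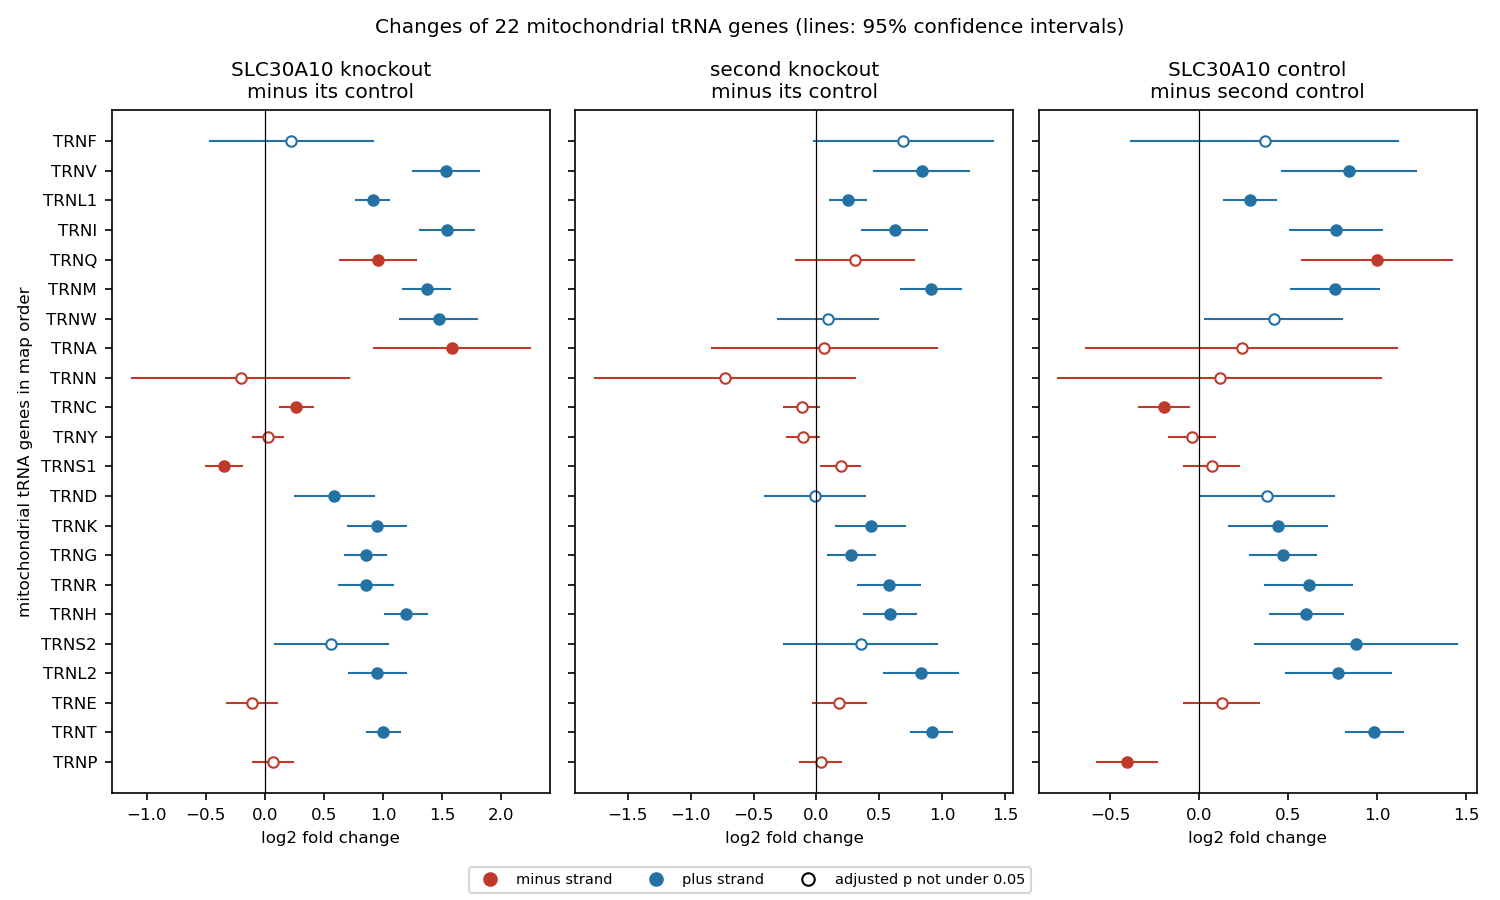
Log2 fold change of each of 22 mitochondrial tRNA genes, in map order, for each knockout against its control and for the control sets, with 95% confidence intervals as lines, strand as colour and filled points for an adjusted p under 0.05. Most plus-strand points are filled and right of 0, while of the minus-strand points 4, 0 and 3 are filled and lie on both sides of 0.

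Ratios of neighbours on opposite strands were taken within single libraries, free of any scaling between libraries, and the pairs differed in what they showed. TRNP, the proline tRNA, and TRNT, the threonine tRNA, lie 2 bases apart. The ratio of TRNP to TRNT counts was 2.13, 1.74, 1.93 and 2.07 in the SLC30A10 control and 1.12, 1.08, 0.972 and 0.942 in the SLC30A10 knockout. It was 5.58, 5.54, 4.69 and 4.68 in the second control and 2.59, 3.24, 2.48 and 2.86 in the second knockout. No library of any group entered the range of another group. TRNT itself was higher by 1.00 ± 0.07 in the SLC30A10 knockout, by 0.92 ± 0.08 in the second knockout and by 0.98 ± 0.08 in the SLC30A10 control relative to the second control (log2, ± SE), while TRNP passed the test only between the controls.

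Ratios to neighbours were also taken for the low members TRNQ and TRNA and for TRNS1. No test compared these ratios with each other, and those of TRNA rest on 4 to 31 counts of TRNA per library. TRNA reached the test only through the SLC30A10 knockout, where it was high, so its values there are a description. The ratio of TRNQ to TRNM counts was 0.208 ± 0.0218 in the SLC30A10 control, 0.156 ± 0.0123 in its knockout, 0.174 ± 0.0269 in the second control and 0.117 ± 0.0314 in the second knockout (SD, n = 4). The ratio was lower in every library of the SLC30A10 knockout than in any of its control, and no test was made of it. The ratio of TRNQ to TRNI, the gene it overlaps, was 0.0325 ± 0.00397, 0.0224 ± 0.00540, 0.0281 ± 0.00780 and 0.0231 ± 0.00760 in the same order, and its groups overlapped. The ratio of TRNS1 to TRND, lower in the SLC30A10 knockout as given above, was 431 ± 15.4 in the second control and 547 ± 221 in the second knockout, with overlap. The ratio of TRNA to TRNW counts was 0.0368 ± 0.0152, 0.0426 ± 0.0115, 0.0486 ± 0.0389 and 0.0416 ± 0.0175 in the same order, and all groups overlapped. TRNW, the tryptophan tRNA 7 bases from TRNA, was itself 1.47 ± 0.16 higher in the SLC30A10 knockout (log2), beside 1.58 ± 0.32 for TRNA. The part of either neighbour in the other's counts was not tested.

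**Figure D4:**
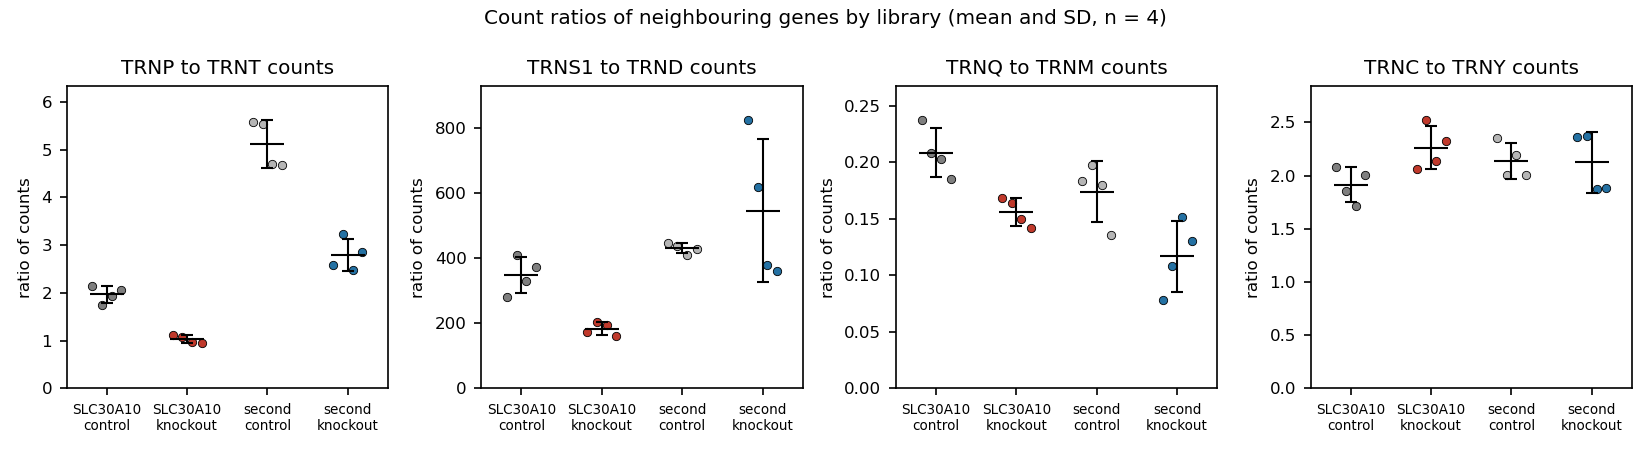
Ratio of the counts of neighbouring tRNA genes in each of 16 libraries, by group, on linear axes from 0, with the mean and SD of 4 libraries. The TRNP to TRNT ratio separates all 4 groups, from 1.03 on average in the SLC30A10 knockout to 5.12 in the second control, while the TRNC to TRNY ratio, both genes on the minus strand, stays between 1.72 and 2.53 in every library.

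The 16 other mitochondrial genes together took a larger share of the library in each knockout than in its control. They held 0.0496% ± 0.00340 of counts in the SLC30A10 control and 0.0866% ± 0.00729 in its knockout, a ratio of 1.75, and 0.0404% ± 0.00221 and 0.0517% ± 0.00586 in the second control and knockout, a ratio of 1.28 (SD, n = 4). Both differences, and the ratio of 1.23 between the controls, had a two-sided exact permutation p of 0.0286, the smallest that 4 against 4 libraries allow. Most of the rise in each knockout lay in the 14 plus-strand tRNA genes, which held 0.0325%, 0.0680%, 0.0220% and 0.0306% of counts. The order is SLC30A10 control and knockout, then second control and knockout. RNR1 and RNR2 together held 0.0171%, 0.0186%, 0.0185% and 0.0210%. The 8 minus-strand genes held 0.143%, 0.126%, 0.141% and 0.154% of counts in the same order of groups, so they held more counts than the other 16 together in each group. This order rests largely on TRNS1, which alone held 60.6% of the counts on the 8 genes. How much RNA of the opposite strand those counts hold was not tested.

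Measured against those 16 genes, the members look different. With this scaling the median log2 fold change of all tested genes became -0.82 for the SLC30A10 knockout and -0.33 for the other, and 92.4% and 67.7% of all tested genes passed the test. For the difference of effects 67.7% passed, and between the controls 52.7%. In the SLC30A10 knockout 6 of 8 members were then lower, TRNA was higher by 0.77 ± 0.32, and TRNQ, at 0.15 ± 0.21, did not pass. TRNC, higher by 0.27 in CPM, was lower here at -0.55 ± 0.09, and TRNS1 was -1.15 ± 0.10. In the second knockout 4 of 8 were lower and none higher, and between the controls 3 were lower and TRNQ was higher. This scaling moves all genes of a comparison by nearly the same amount. In the SLC30A10 knockout TRNC therefore stayed above the median of all tested genes and TRNS1 below it by construction.

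The nuclear genes that make or handle these tRNAs were read from 5 lists, whose counts stand against the 41.4% of all tested genes called in the SLC30A10 knockout (21.2% higher, 20.2% lower) and the 13.7% called in the second (6.67% and 7.03%). Of genes for tRNA end processing, 2 of 8 tested rose and 1 fell in the SLC30A10 knockout, near that background. HSD17B10, a subunit of mitochondrial RNase P, rose by 0.28 ± 0.05 (log2, ± SE) and TRNT1, which adds CCA, by 0.13 ± 0.05. REXO2, which degrades very short RNAs, fell by 0.30 ± 0.05. In the second knockout 0 of 8 passed the test, at medians of -0.01 for this list and -0.0025 for all genes.

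Of genes for tRNA base modification, 1 of 22 rose and 4 fell in the SLC30A10 knockout (41.4% called over all genes), and 2 rose and 0 fell in the second knockout (13.7%). TRMT2B, which methylates uridine, rose by 0.45 ± 0.06 in the SLC30A10 knockout. METTL8 and NSUN2, which methylate cytidine, fell by 0.30 ± 0.06 and 0.17 ± 0.05. In the second knockout GTPBP3, which modifies the wobble base of several mitochondrial tRNAs including TRNQ and TRNE, rose by 1.13 ± 0.06, from 46.0 ± 3.55 to 101 ± 8.19 CPM (SD, n = 4). METTL8 rose there by 0.21 ± 0.06.

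Of 10 genes for loading the members with amino acids, 3 rose and 3 fell in the SLC30A10 knockout (41.4% called over all genes), and 2 rose and 0 fell in the second (13.7% over all genes). NARS2, the asparagine enzyme, and CARS2, the cysteine enzyme, rose by 0.25 ± 0.05 and 0.18 ± 0.04 in the SLC30A10 knockout. PET112, now GATB, a subunit of the complex that completes glutamine-loaded TRNQ, fell by 0.37 ± 0.05. SARS2 for serine and EARS2 for glutamate rose by 0.24 ± 0.06 and 0.14 ± 0.04 in the second knockout. In the SLC30A10 knockout TRNC rose in CPM where CARS2 rose, and TRNQ rose where PET112 fell. TRNN, at 2 to 18 counts in that knockout, did not pass the test where NARS2 rose. In the second knockout TRNS1 (0.19) and TRNE (0.18) did not pass the test where SARS2 and EARS2 rose. A link between these enzymes and the members was not tested.

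Of 17 genes for mitochondrial transcription and DNA upkeep, 2 rose and 1 fell in the SLC30A10 knockout and 1 rose in the second. TOP1MT, the mitochondrial topoisomerase, rose by 0.26 ± 0.05 and 0.19 ± 0.05 in the SLC30A10 and the second knockout. MRPL12, a ribosomal protein, rose by 0.25 ± 0.05 and MGME1, a DNA exonuclease, fell by 0.26 ± 0.04 in the SLC30A10 knockout. Of 15 genes for mitochondrial RNA binding and decay, 2 rose and 5 fell in the SLC30A10 knockout, and 0 rose and 1 fell in the second, beside 41.4% and 13.7% called over all genes. FASTKD2, an RNA-binding protein of the mitochondrial RNA granule, fell in the SLC30A10 knockout from 60.1 ± 2.93 to 0.170 ± 0.0780 CPM (SD, n = 4; adjusted p = 3.34e-25, edgeR quasi-likelihood, Benjamini-Hochberg). That level is at about the 3-count floor. FASTKD2 also fell in the second knockout, by 0.64 ± 0.06, from 53.9 ± 1.44 to 34.5 ± 3.13 CPM. FASTKD5, a relative needed to process some mitochondrial mRNAs, fell by 0.50 ± 0.07 in the SLC30A10 knockout.

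Between the controls, genes of all 5 lists were higher in the SLC30A10 control and none lower: 4 of 8 for end processing, 11 of 22 for base modification, 5 of 10 for amino acid loading, 6 of 17 for transcription and 11 of 15 for RNA binding and decay. Over all tested genes 18.5% were higher and 20.8% lower. The part of these differences in the tRNA counts was not tested.

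The gene most like each member was sought by the root mean squared difference of centred log2 CPM over the 16 libraries, for the 6 members with a mean of at least 20 counts. TRNC and TRNY, which overlap on the map, were each other's nearest mitochondrial gene at 0.15, and so were TRNE and TRNS1, far apart on the map, at 0.16. The spread of each gene about its own mean was 0.15 for TRNC, 0.10 for TRNY, 0.19 for TRNE and 0.21 for TRNS1, so the TRNC to TRNY difference was no smaller than the variation of either gene. TRNP, with a spread of 0.23, was nearest to RNR2 at 0.20 and then TRNS1 at 0.22. TRNQ was nearest to plus-strand genes, TRNH at 0.34 and TRNT at 0.36, though its own spread was 0.76. Among nuclear genes the nearest were SECISBP2L to TRNC (0.085), STRADA to TRNE (0.13), SLC25A36 to TRNP (0.088), CUX2 to TRNQ (0.24), SGSM3 to TRNS1 (0.11) and TOB2 to TRNY (0.061). The nuclear genes were picked from all tested genes of that level, so their nearness is a description only.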

How the data were processed

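RNA of 16 HAP1 libraries was read as paired reads of 100 bases after poly-A selection and random priming, per the labels' protocols. The authors deposited whole-number counts per gene symbol, and the submitters' processing notes name HISAT2, featureCounts, DESeq2 and hg38 or GRCh38, with no versions. The use of strand and the treatment of reads that span several genes are not given in the sources used here. The authors also deposited a normalized signal, which equals the counts times a constant per library within 8.14e-06 counts and served as an alternative.

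The fit used edgeR 4.0.16 (R 4.3.3). Its expression filter (minimum count 10, minimum total 15) kept 15569 of 33121 genes. TMM scaling was applied, and 1 quasi-likelihood fit held a mean for each of the 4 groups. Benjamini-Hochberg adjustment ran over all tested genes, with a threshold of 0.05. Intervals are at 95%. For shares of counts an exact permutation test, two-sided, was used. The procedure was tested on simulated counts. Totals of 16058856 to 16648151 counts make 3 counts 0.181 to 0.187 CPM. No molecular identifiers are mentioned in the labels, and these limits therefore cover counting error only. Replicate pairs differed by more than sampling noise, with a chi-square of 1.64 to 6.83 per degree of freedom.

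All 8 members are named. From each of 5 nuclear lists the text names up to 3 genes with the smallest adjusted p under the threshold in each knockout, and for members with a mean of at least 20 counts the 2 mitochondrial genes and 1 nuclear gene nearest in pattern (log2 of CPM + 0.05). Neighbouring tRNA genes are also named. Members, lists and tests were chosen with earlier results of these data known. Alternatives were other scalings, DESeq2 1.42.0, other filters and thresholds, fewer libraries, pooled controls, the replicate number as a block, and leaving out each library. Pooled controls stands for the mean of both control groups in the same fit. The deposited size factors, and the block with only the 8 libraries compared, were chosen after seeing the data. The gene deleted in the second knockout is not reported here.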

Additional observations from a re-analysis of the deposited data

Results flagged for a closer look

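TRNA stood at 0.848 CPM in second control replicate 2, where the other 3 libraries of that group had a mean of 0.283 CPM. The gap to the nearest library was 0.896 of the whole range of the group, above the critical value of Dixon's test at 95% for a group of this size. Of 36 groups of values tested in this way 1 was so marked, and chance gives about 1.8. The library had 14 counts of TRNA, and the others had 4 or 5.

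For 3 members the effects of the deletions differed by a test of the difference itself (edgeR quasi-likelihood, Benjamini-Hochberg): TRNA by 1.52, TRNC by 0.38 and TRNS1 by -0.54 on the log2 scale, the SLC30A10 effect minus the second. The TRNA difference includes the library just described, and TRNA passed the filter on low counts only through the SLC30A10 knockout.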

How the results depend on the processing

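Of 791 alternative values, 677 kept their direction and their side of the threshold or their size, 43 lost the call, 20 gained one, 41 turned direction and 10 moved. The counts of TRNA, TRNN and TRNQ limit what can be seen for them, and TRNN had no call under any scaling in CPM. The calls of TRNC, TRNQ and TRNS1 in the SLC30A10 knockout kept direction and threshold under all other scalings to the whole library, DESeq2, every omission of a library and pooled controls. The TRNA value there did so too, but stays a description, because TRNA passed the filter on low counts only through the SLC30A10 knockout. The minimum mean count of 50 left TRNA, TRNN and TRNQ untested, and fits of only the 8 libraries compared kept 7, 6 and 7 members for the SLC30A10 knockout, the second and the controls.

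At an adjusted p under 0.01, 1229 genes passed in the second knockout instead of 2132, TRNC between the controls (-0.20) and the TRNA difference of effects (1.52) lost the call. With pooled controls 5341 genes passed in the second knockout, where TRNQ (-0.20) and TRNA (-0.058) turned direction and TRNP (0.24) gained a call, and TRNP in the SLC30A10 knockout turned to -0.13. With no filter, calls were gained by TRNE in the SLC30A10 knockout (-0.11), in the second (0.18), in their difference (-0.29) and between the controls (0.12), and by TRNS1 in the second knockout (0.19). The cause was not tested.

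Same-numbered replicates of the SLC30A10 knockout and its control did not deviate together, with correlations across genes of -0.0893 to 0.00665. For the second pair of groups the correlations were -0.0374 to 0.148 and for the controls -0.117 to 0.131, weak and mostly positive. In the same order, 0, 3 and 4 of 8 libraries correlated best with their own number. With the replicate block 6496, 2158, 4881 and 6134 genes passed for the SLC30A10 knockout, the second, their difference and the controls, beside 6450, 2132, 4873 and 6111, and the TRNA difference of effects (1.51) lost its call at an adjusted p of 0.0529 (edgeR quasi-likelihood). With the block and only the 8 libraries compared, TRNS1 (0.20) and TRNE (0.18) gained a call in the second knockout. Within pairs the ratios of mitochondrial shares, 1.75, 1.28 and 1.23, had an exact permutation p of 0.125, the smallest possible.

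Scaled to the other mitochondrial genes, values in the SLC30A10 knockout became -0.91 for TRNE, -1.01 for TRNN, -0.74 for TRNP, 0.15 for TRNQ, -0.79 for TRNY and -0.55 for TRNC. In the second they became -0.28 for TRNA, -0.46 for TRNC, -0.17 for TRNE, -1.07 for TRNN, -0.028 for TRNQ, -0.31 for TRNP, -0.43 for TRNY and -0.15 for TRNS1. Their differences became -0.75 for TRNE, -0.43 for TRNP, -0.35 for TRNY, -0.094 for TRNC and 1.05 for TRNA. Between the controls they became -0.036 for TRNA, -0.16 for TRNE and TRNN, -0.32 for TRNY and -0.21 for TRNS1. This scaling moved the median of all tested genes to -0.82, -0.33, -0.49 and -0.28 in the same order. Shares were also taken over all 24 mitochondrial genes with the members included, so a change of the abundant TRNS1 moves the shares of the others. In these shares, log2 ratios in the SLC30A10 and the second knockout moved to 0.11 and -0.30 for TRNC, -0.50 and 0.023 for TRNS1, -0.13 and -0.28 for TRNY, and in the SLC30A10 knockout to -0.089 for TRNP and 0.80 for TRNQ. A share over mitochondrial mRNAs was not run.

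On leaving out a library, values ranged in the SLC30A10 knockout from -0.86 to 0.11 for TRNN and -0.011 to 0.071 for TRNY. In the second they ranged from -0.21 to 0.63 for TRNA, -0.030 to 0.11 for TRNP and 0.14 to 0.26 for TRNS1. Their differences ranged from 0.95 to 1.81 for TRNA, -0.39 to -0.20 for TRNE (called without SLC30A10 control replicate 1 or second knockout replicate 4), -0.14 to 0.83 for TRNN and -0.041 to 0.10 for TRNP. Between the controls they ranged from -0.057 to 0.82 for TRNA, -0.25 to -0.15 for TRNC, -0.14 to 0.59 for TRNN, -0.0029 to 0.14 for TRNS1 and -0.10 to 0.0073 for TRNY. The mitochondrial share ratios ranged from 1.70 to 1.81, 1.21 to 1.33 and 1.19 to 1.26, with 3 against 4 libraries unable to go below an exact permutation p of 0.0571.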
